A study of Homo sapiens with 9 samples.

Results

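The 10 genes described here are named regulators and markers of the epithelial-mesenchymal transition (EMT). They are the transcription factors SNAI1, SNAI2, TWIST1, ZEB1 and ZEB2, the cadherins CDH1 and CDH2, the epithelial adhesion gene EPCAM, and the mesenchymal genes VIM and FN1. They were taken by name, with earlier results of these data known. All 10 had a row among the 36753 Ensembl gene identifiers in the deposited files. RNA sequencing covered 9 libraries of PANC-1, a cultured line established from a human pancreatic duct carcinoma. There were 3 libraries of cells given siRNA against SIRT6 (siSIRT6), 3 given siRNA against KDM5C (siKDM5C) and 3 controls, whose columns are headed siNC. All 9 were transfected and harvested 48 hours later. SIRT6 encodes a nuclear NAD-dependent deacylase, and KDM5C a demethylase of histone H3 lysine 4. The sources used here do not say how many siRNAs were used or give their sequences. The labels do not state whether the 3 libraries of a group came from separate cultures, so p-values measure the spread between these libraries, which may be technical.

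In EMT, epithelial cells lose the junctions that hold them to their neighbours and gain the motility of mesenchymal cells. The SNAIL, TWIST and ZEB transcription factors are its best known drivers. SNAIL and ZEB proteins bind E-box motifs and repress epithelial genes, of which the E-cadherin gene CDH1 is the textbook target, while N-cadherin (CDH2), vimentin (VIM) and fibronectin (FN1) are the usual markers of the mesenchymal state. In pancreatic carcinoma, cell lines range from epithelial to mesenchymal, and EMT factors are studied for their part in invasion and drug resistance.

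The files held FPKM (fragments per kilobase, relative to each library's total), and the FPKM steps gave 18201413 to 26910441 reads in genes per library, with siSIRT6 replicate 3 and siKDM5C replicate 3 the deepest. SIRT6 fell to 9.66% of its control mean in siSIRT6 cells, and KDM5C to 19.6% of its control mean in siKDM5C cells. All 6 markers of pancreatic duct carcinoma (KRT7, KRT8, KRT18, KRT19, SOX9 and MUC1) averaged at least 1 FPKM in every group. Of 6 leukocyte markers with values, only CD68 and CD14 averaged at least 1 FPKM; their summed level was 36.4 to 39.4 FPKM in siSIRT6, 72.9 to 93.8 in siKDM5C and 44.1 to 58.2 in control libraries, with the defining marker PTPRC at 0.012 FPKM or less. The 6 endothelial markers summed to less than 1 FPKM in every library. The share of reads from mitochondrial DNA was 6.53% to 6.91% in siSIRT6, 5.67% to 6.61% in siKDM5C and 8.10% to 9.81% in control libraries, and its part in the results below was not tested.

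Across the 10 genes, VIM stood far above the rest. Mean levels per length in siSIRT6 cells ran from VIM at 825 FPKM through SNAI1 (6.41), ZEB1 (5.53), CDH2 (4.62), SNAI2 (2.54) and EPCAM (1.56) to CDH1 (0.520), FN1 (0.421) and ZEB2 (0.404). In siKDM5C cells the order was VIM at 843 FPKM, then SNAI1 (7.91), ZEB1 (6.44), EPCAM (2.93), SNAI2 (2.10), CDH2 (1.38), ZEB2 (0.419), FN1 (0.233) and CDH1 (0.140). Control cells gave VIM at 612 FPKM, then SNAI1 (7.93), ZEB1 (5.68), CDH2 (2.51), SNAI2 (1.08), EPCAM (0.988), CDH1 (0.591), ZEB2 (0.508) and FN1 (0.199). TWIST1 was last in every group. CDH2 thus ranked above SNAI2 and EPCAM in siSIRT6 and control cells and below them in siKDM5C cells, and CDH1 ranked below ZEB2 and FN1 only in siKDM5C cells. Neighbours in these orders whose libraries overlapped were FN1 and ZEB2 in siSIRT6 cells and SNAI2 and EPCAM in control cells; all other neighbours were apart in their 3 libraries. In these bulk libraries, fewer cells of a kind and less RNA per cell cannot be told apart.

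**Figure D1:**
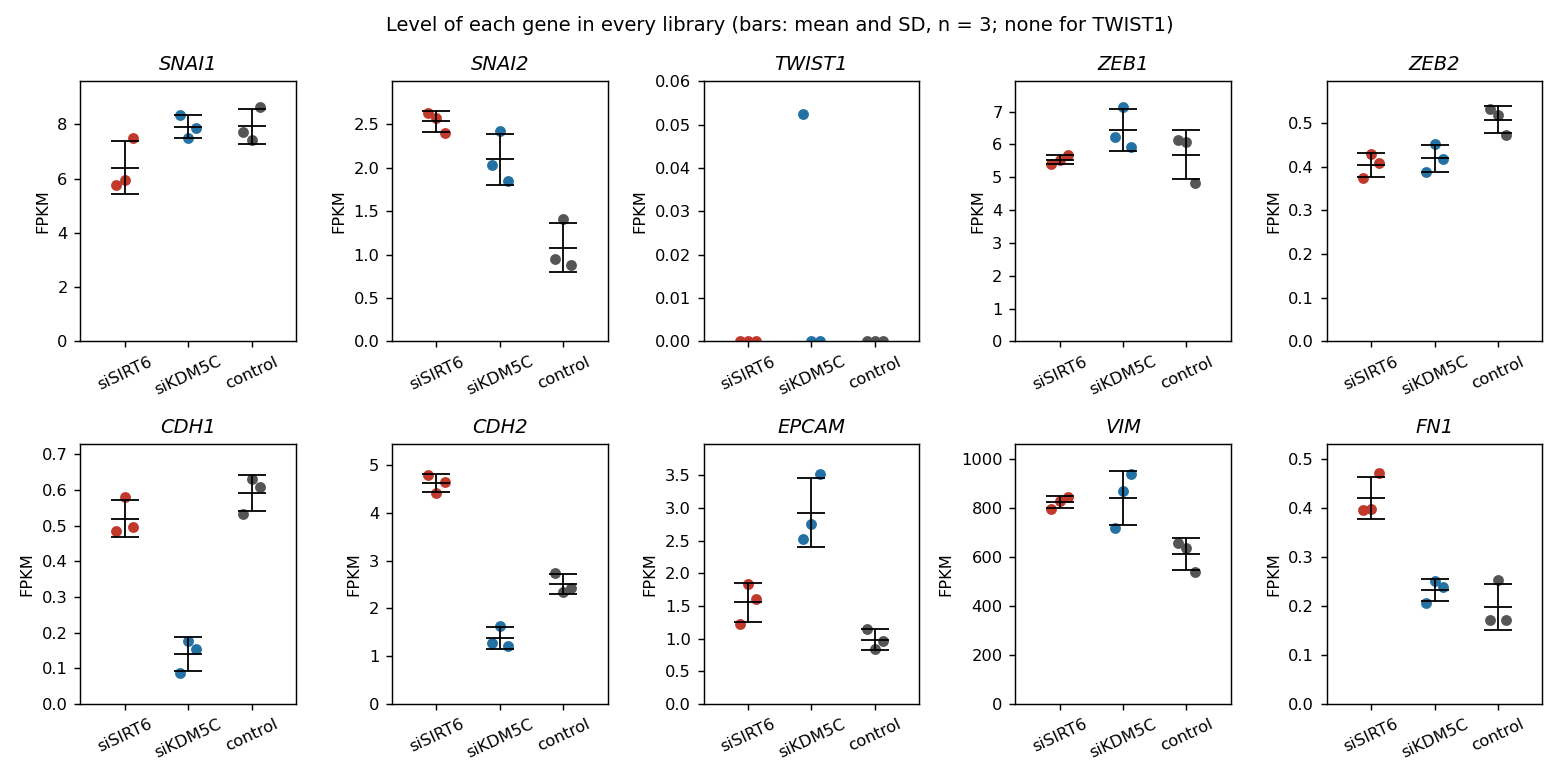
FPKM of the 10 genes in every library (points) by group, with the mean and SD of 3 libraries as horizontal marks; TWIST1 has no mean because 8 of its 9 values are 0, and each panel has its own scale. CDH2 is highest in siSIRT6 and lowest in siKDM5C cells with no overlap between groups, CDH1, under 1 FPKM everywhere, is lowest in siKDM5C cells, and VIM and SNAI2 are higher in both knockdowns than in control cells.

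Genes were tested with limma on log2(FPKM + 1) where 3 or more libraries held at least 1 FPKM, which left 16135, and p-values were adjusted over all of these by the Benjamini-Hochberg method with a threshold of 0.05. Of the 10 members, 6 entered this test (SNAI1, SNAI2, ZEB1, CDH2, VIM and EPCAM). SNAI2 and EPCAM entered it through the knockdown libraries, since only 1 of 3 control libraries held at least 1 FPKM of either. CDH1, FN1 and ZEB2 lay below that minimum and TWIST1 was almost absent. Because CDH1, FN1 and ZEB2 still had 460, 920 and 2103 reads over the 9 libraries, a second limma fit on log2 CPM (reads relative to the library's total) of the recovered reads was added after the data were seen, with a minimum of 1 CPM in 3 libraries; it tested 17369 genes and every member but TWIST1. It is called the read-scale fit below. Fold changes on the log2(FPKM + 1) scale understate the change of low genes, and those on the read scale do so less.

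In siSIRT6 against control, 4 of the 6 members tested rose (SNAI2, CDH2, VIM and EPCAM) and 1 fell (SNAI1), in a comparison where 50.8% of all genes tested were called (23.9% higher and 26.9% lower). In siKDM5C against control, 3 rose (SNAI2, VIM and EPCAM) and 1 fell (CDH2), with 51.5% of all genes called (25.6% higher and 25.9% lower). SNAI2 and EPCAM, among the genes that rose in both comparisons, entered this test through the knockdown libraries, where they are higher. Both met the minimum of the read-scale fit in all 9 libraries. In siSIRT6 against siKDM5C, CDH2 was higher and EPCAM lower, with 39.9% of all genes called (18.6% higher and 21.3% lower). The read-scale fit called 5 members higher and 2 lower in siSIRT6 against control (53.6% of all genes called, 25.6% higher and 28% lower), 3 higher and 3 lower in siKDM5C against control (54% called, 27.3% higher and 26.7% lower), and 3 higher and 2 lower in siSIRT6 against siKDM5C (43.7% called, 20.7% higher and 23% lower). The read-scale counts of siKDM5C against control and of siSIRT6 against siKDM5C include CDH1, which met the minimum through its siSIRT6 and control libraries. With no filter on low values the shares called were 23.2%, 23.9% and 17.3% of 36753 genes in the same comparisons. The FPKM of the 3 libraries did not overlap between groups for 6, 6 and 5 of the 10 members in these comparisons, against 65.5%, 55.7% and 51.7% of the 16135 genes tested. The 2 sets differ, since CDH1, FN1, ZEB2 and TWIST1 are among the 10 members but not among the genes tested. Both knockdowns were compared with the same 3 control libraries, so their values are given side by side and no overlap between them is counted.

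**Figure D2:**
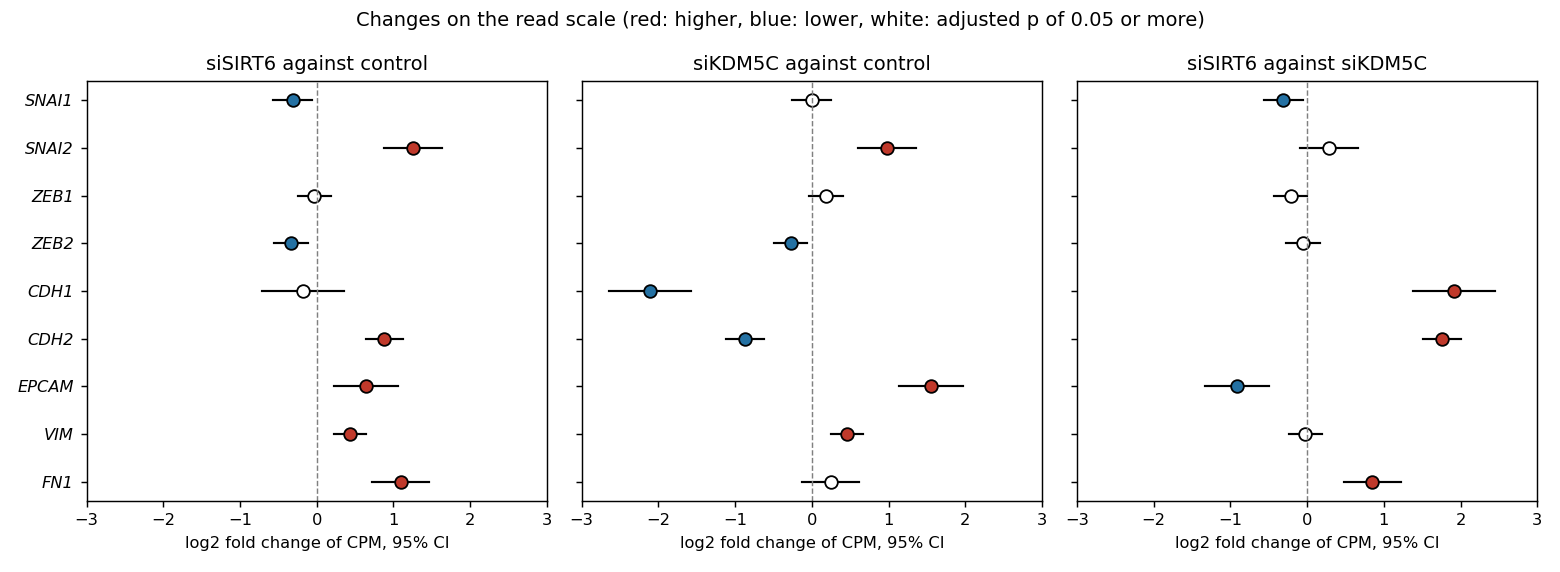
Log2 fold change of CPM with its 95% confidence interval for the 9 members in the read-scale fit, in each of the 3 comparisons; filled points passed an adjusted p of 0.05 (red higher, blue lower) and white points did not. CDH2 lies at 0.88 in siSIRT6 and at -0.87 in siKDM5C cells against control, and CDH1 lies at -2.11 in siKDM5C cells. CDH1 met the minimum of that fit through its siSIRT6 and control libraries.

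The promoter search did not cover SNAI1, SNAI2, TWIST1, CDH1 and EPCAM, so the counts of member windows leave these genes out. Promoter windows of RefSeq genes (GRCh38.p14) were used for ZEB1, ZEB2, CDH2, VIM and FN1, with 12 windows in all. They were searched for the E-box CANNTG and for its form CACCTG, read on either strand (CACCTG or CAGGTG, which are also matches of CANNTG), known to be bound by SNAIL and ZEB proteins. Of 35116 windows of the same length (250 upstream bases), 61.8% held CANNTG and 17.5% held CACCTG or CAGGTG. Among the member windows, CACCTG or CAGGTG occurred in 2, both of ZEB1, whose differences did not pass the test. The windows of VIM and FN1 and that of the upstream CDH2 start held no CANNTG. A match is a description of the letters and not a site. The 250 bases upstream of the annotated start, 5′ to 3′, are shown for CDH2 (chr18:28177131-28177380, minus strand) and VIM (chr10:17227991-17228240, plus strand), the called genes with the opposite and the shared direction, and for the ZEB1 window with both CACCTG and CAGGTG (chr10:31318966-31319215, plus strand), with CANNTG in capitals.
CDH2: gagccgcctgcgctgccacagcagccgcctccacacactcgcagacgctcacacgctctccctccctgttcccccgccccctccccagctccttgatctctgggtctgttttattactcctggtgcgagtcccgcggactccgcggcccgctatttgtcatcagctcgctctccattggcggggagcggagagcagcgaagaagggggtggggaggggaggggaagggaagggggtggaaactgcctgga
VIM: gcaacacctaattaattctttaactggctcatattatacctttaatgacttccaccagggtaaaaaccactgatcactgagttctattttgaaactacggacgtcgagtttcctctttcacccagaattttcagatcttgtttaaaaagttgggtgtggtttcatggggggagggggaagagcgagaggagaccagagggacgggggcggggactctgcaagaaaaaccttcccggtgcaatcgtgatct
ZEB1: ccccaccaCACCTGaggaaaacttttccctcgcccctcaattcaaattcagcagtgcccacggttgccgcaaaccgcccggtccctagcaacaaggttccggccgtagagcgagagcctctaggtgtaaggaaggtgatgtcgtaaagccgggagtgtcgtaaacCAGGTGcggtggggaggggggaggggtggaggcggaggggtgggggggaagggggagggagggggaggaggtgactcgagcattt

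Among the transcription factors, SNAI2 rose in both knockdowns. SNAI2 (SLUG, ENSG00000019549, chromosome 8, 48917604 to 48921740, minus strand; GRCh38, GENCODE release 29, as for all coordinates of genes here) is a SNAIL-family zinc finger repressor. Its level was 2.63, 2.57 and 2.40 FPKM in siSIRT6 libraries 1 to 3, 2.03, 2.42 and 1.85 FPKM in siKDM5C libraries and 0.954, 1.41 and 0.882 FPKM in control libraries. All 6 knockdown libraries lay above all 3 controls, and the knockdown groups overlapped each other. Mean FPKM was 2.35 times the control in siSIRT6 cells and 1.94 times the control in siKDM5C cells. In the read-scale fit, whose minimum all 9 libraries met (3.13, 4.61 and 2.89 CPM in the controls), the log2 difference was 1.25 ± 0.17 (SE; limma adjusted p = 7.45e-05) in siSIRT6 and 0.97 ± 0.17 (limma adjusted p = 0.000508) in siKDM5C cells. On the log2(FPKM + 1) scale the differences were 0.77 ± 0.11 and 0.58 ± 0.11. SNAI2 entered that test through the knockdown libraries, so its p-values there are not given. With no filter on low values both differences passed (limma adjusted p of 0.00196 and 0.00752). Between the knockdowns the difference on the read scale was 0.28, with a 95% interval of -0.10 to 0.66 (limma adjusted p = 0.212).

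SNAI1 (SNAIL, ENSG00000124216, chromosome 20, 49982999 to 49988886, plus strand), the founding member of the family and a repressor of CDH1, was at a similar level in all groups. It had 5.75, 5.95 and 7.52 FPKM in siSIRT6 libraries, 8.35, 7.51 and 7.86 FPKM in siKDM5C libraries and 7.73, 7.41 and 8.64 FPKM in control libraries. Libraries 1 and 2 of siSIRT6 were the lowest of the 9, while library 3 lay within the control range, so the groups overlapped. The siSIRT6 difference of -0.27 ± 0.10 on the log2(FPKM + 1) scale passed the threshold (limma adjusted p = 0.0404). It did not pass with median-of-ratios scaling (adjusted p = 0.0905), with FPKM rescaled to an equal sum in every library (0.184), with no filter on low values (0.0846) or in a fit of only the groups compared (0.0586), and leaving out 1 library at a time gave limma adjusted p of 0.00649 to 0.135. In siKDM5C cells the difference from control was -0.00, with a 95% interval of -0.22 to 0.22 (limma adjusted p = 0.991). Directly compared, siSIRT6 differed from siKDM5C by -0.27 (limma adjusted p = 0.0502; 0.0458 in the read-scale fit). The ratio of SNAI1 to SNAI2 in FPKM was 2.18 to 3.13 in siSIRT6, 3.10 to 4.26 in siKDM5C and 5.27 to 9.80 in control libraries.

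ZEB1 (ENSG00000148516, chromosome 10, 31318495 to 31529814, plus strand), a zinc finger and homeodomain repressor of epithelial genes, showed no difference that passed the test. It had 5.40, 5.53 and 5.67 FPKM in siSIRT6 libraries, 6.24, 7.16 and 5.92 FPKM in siKDM5C libraries and 6.15, 6.08 and 4.82 FPKM in control libraries. The controls, of which library 3 was the lowest of the 9, overlapped both knockdown groups. The 95% interval of the difference from control on the log2(FPKM + 1) scale was -0.24 to 0.18 in siSIRT6 (limma adjusted p = 0.824) and -0.05 to 0.37 in siKDM5C cells (limma adjusted p = 0.185). The siSIRT6 libraries all lay below the siKDM5C libraries, but the difference of -0.18 did not pass (limma adjusted p = 0.145).

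ZEB2 (ENSG00000169554, chromosome 2, 144364364 to 144524583, minus strand), the close relative of ZEB1, was low throughout. It had 0.374, 0.428 and 0.408 FPKM in siSIRT6 libraries, 0.389, 0.451 and 0.418 FPKM in siKDM5C libraries and 0.532, 0.518 and 0.474 FPKM in control libraries, from 192 to 287 reads each. Every knockdown library lay below every control library. In the read-scale fit the log2 difference was -0.33 ± 0.10 in siSIRT6 (limma adjusted p = 0.0147; 0.0107 to 0.0662 when 1 library at a time was left out) and -0.28 ± 0.10 in siKDM5C cells (limma adjusted p = 0.0346; 0.0207 to 0.114). On the log2(FPKM + 1) scale with no filter, neither passed (limma adjusted p of 0.125 and 0.190). The ratio of ZEB1 to ZEB2 in FPKM was 12.9 to 14.4 in siSIRT6, 14.2 to 16.0 in siKDM5C and 10.2 to 11.7 in control libraries.

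TWIST1 (ENSG00000122691, chromosome 7, 19020991 to 19117672, minus strand), a basic helix-loop-helix factor, was listed at 0 in all siSIRT6 and all control libraries and in siKDM5C libraries 2 and 3. In siKDM5C library 1 it had 2 reads, or 0.0524 FPKM. At these depths 0 reads allow up to 0.0559 to 0.0827 FPKM (3 reads, counting error only). The value of siKDM5C library 1 also lay under its own limit of 0.0788 FPKM. TWIST1 was thus not reliably detectable in any library at this depth, and no difference was tested.

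CDH2 changed in opposite directions in the knockdowns. CDH2 (N-cadherin, ENSG00000170558, chromosome 18, 27950966 to 28177446, minus strand) is the calcium-dependent adhesion protein of neural and mesenchymal cells. It had 4.80, 4.42 and 4.64 FPKM in siSIRT6 libraries, 1.28, 1.64 and 1.21 FPKM in siKDM5C libraries and 2.74, 2.35 and 2.43 FPKM in control libraries. No library of any group entered the range of another group. Mean FPKM was 1.84 times the control in siSIRT6 cells and 0.549 times the control in siKDM5C cells. The log2(FPKM + 1) difference was 0.68 ± 0.08 in siSIRT6 (limma adjusted p = 0.000204) and -0.56 ± 0.08 in siKDM5C cells (limma adjusted p = 0.000563). Directly compared, siSIRT6 exceeded siKDM5C by 1.25 ± 0.08 (limma adjusted p = 1.56e-05), or 3.35 times in mean FPKM. These 3 calls held each time 1 library was left out, with limma adjusted p of at most 0.00313.

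CDH1 fell in siKDM5C cells alone among the comparisons with control. CDH1 (E-cadherin, ENSG00000039068, chromosome 16, 68737225 to 68835548, plus strand) forms the adherens junctions of epithelial cells. It was under 1 FPKM everywhere, with 0.485, 0.579 and 0.495 FPKM in siSIRT6 libraries, 0.0862, 0.178 and 0.156 FPKM in siKDM5C libraries and 0.533, 0.630 and 0.608 FPKM in control libraries. In reads this was 58, 68 and 81 in siSIRT6, 10, 20 and 22 in siKDM5C and 59, 73 and 69 in control libraries. The siKDM5C libraries all lay far below the other 6, and siSIRT6 and control overlapped. Mean FPKM in siKDM5C cells was 23.7% of the control mean. CDH1 met the minimum of the read-scale fit through the siSIRT6 and control libraries, while siKDM5C libraries 1 and 3 lay under 1 CPM. In that fit the log2 difference from control was -2.11 ± 0.25 in siKDM5C cells. It was -0.18, with a 95% interval of -0.72 to 0.35, in siSIRT6 cells (limma adjusted p = 0.548). Directly compared, siSIRT6 exceeded siKDM5C by 1.92 ± 0.25. Because of how CDH1 met the minimum, read-scale p-values of the comparisons with siKDM5C are not given. On the log2(FPKM + 1) scale with no filter, the siKDM5C fall passed (limma adjusted p = 0.000396), as did the direct comparison (limma adjusted p = 0.00132).

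The relative level of the cadherins was described by a ratio within each library. The ratio of CDH2 to CDH1 in FPKM was 9.89, 7.63 and 9.37 in siSIRT6 libraries, 14.9, 9.24 and 7.75 in siKDM5C libraries and 5.14, 3.73 and 4.00 in control libraries. It was above every control in all 6 knockdown libraries. In siSIRT6 cells CDH2 was higher than in control cells and CDH1 overlapped the controls. In siKDM5C cells both were lower, with CDH2 at 54.9% and CDH1 at 23.7% of the control mean, and the ratio there rests on 10 to 22 reads of CDH1 per library.

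EPCAM was higher in both knockdowns and highest in siKDM5C cells. EPCAM (ENSG00000119888, chromosome 2, 47345158 to 47387601, plus strand) encodes an epithelial surface adhesion protein used to identify carcinoma cells. It had 1.23, 1.83 and 1.61 FPKM in siSIRT6 libraries, 2.52, 2.76 and 3.52 FPKM in siKDM5C libraries and 1.15, 0.841 and 0.970 FPKM in control libraries. The 3 groups did not overlap, although siSIRT6 library 1 lay close to control library 1. In siKDM5C cells mean FPKM was 2.97 times the control. In the read-scale fit, whose minimum all 9 libraries met (2.80, 2.04 and 2.36 CPM in the controls), the log2 difference was 1.56 ± 0.19 in siKDM5C (limma adjusted p = 2.70e-05) and 0.64 ± 0.19 in siSIRT6 cells (limma adjusted p = 0.0133). The siSIRT6 call on that scale was lost without control replicate 2 (limma adjusted p = 0.0541) or siSIRT6 replicate 2 (0.0647). On the log2(FPKM + 1) scale, where EPCAM entered the test through the knockdown libraries, the difference was 0.98 ± 0.12 in siKDM5C cells. It passed with no filter on low values (limma adjusted p = 0.00114). In siSIRT6 cells the difference was 0.36 ± 0.12 on that scale and did not pass with no filter (limma adjusted p = 0.0870). Nor did it pass without control replicate 2 (0.110), control replicate 3 (0.0794), siSIRT6 replicate 2 (0.123) or siSIRT6 replicate 3 (0.0948). Directly compared on the read scale, siSIRT6 differed from siKDM5C by -0.91 ± 0.19 (limma adjusted p = 0.00219). EPCAM and CDH1, both epithelial markers, changed in opposite directions in siKDM5C cells. The ratio of EPCAM to CDH1 in FPKM was 15.5 to 29.3 there, against 1.34 to 2.16 in control libraries.

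VIM rose in both knockdowns. VIM (ENSG00000026025, chromosome 10, 17228259 to 17237593, plus strand) encodes vimentin, the intermediate filament protein of mesenchymal cells. It had 798, 829 and 847 FPKM in siSIRT6 libraries, 720, 869 and 938 FPKM in siKDM5C libraries and 660, 638 and 538 FPKM in control libraries. All knockdown libraries exceeded all controls, and the siKDM5C libraries spread around the siSIRT6 ones. The log2(FPKM + 1) difference was 0.44 ± 0.11 in siSIRT6 (1.35 times the control in mean FPKM; limma adjusted p = 0.0105) and 0.46 ± 0.11 in siKDM5C cells (1.38 times; limma adjusted p = 0.00824). Between the knockdowns it was -0.02, with a 95% interval of -0.27 to 0.23 (limma adjusted p = 0.888).

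FN1 (ENSG00000115414, chromosome 2, 215360440 to 215436172, minus strand), which encodes the matrix protein fibronectin, rose in siSIRT6 cells from a low level. It had 0.396, 0.397 and 0.471 FPKM in siSIRT6 libraries, 0.207, 0.251 and 0.240 FPKM in siKDM5C libraries and 0.172, 0.253 and 0.171 FPKM in control libraries. In reads the siSIRT6 libraries held 134, 132 and 218, the siKDM5C libraries 68, 80 and 96, and the control libraries 54, 83 and 55. The siSIRT6 libraries lay above the other 6, and siKDM5C overlapped control because of control library 2. In the read-scale fit the log2 difference was 1.10 ± 0.17 in siSIRT6 (2.12 times the control in mean FPKM; limma adjusted p = 0.000186). In siKDM5C cells it was 0.24, with a 95% interval of -0.13 to 0.62 (limma adjusted p = 0.248), and it passed only without control replicate 2 (0.0427). Directly compared, siSIRT6 exceeded siKDM5C by 0.85 ± 0.17 (limma adjusted p = 0.00168).

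Several members share annotated exons with a gene on the opposite strand. The labels name a stranded library kit, but the sources used here do not state which strand was counted, so reads of a member and its partner cannot be told apart. VIM-AS1 (641 shared exonic bases) averaged 932 FPKM in siSIRT6, 967 in siKDM5C and 656 in control cells, close to VIM itself. It rose with VIM, near the threshold (limma adjusted p of 0.0480 and 0.0407). Its siKDM5C libraries (715, 987 and 1199 FPKM) overlapped the controls (741, 704 and 522 FPKM). A further gene over VIM, ENSG00000234961, of whose exonic bases 87.7% lie in VIM exons, averaged 2323 FPKM in siSIRT6, 2442 in siKDM5C and 1769 in control cells. The partner of CDH2, ENSG00000227279, averaged 12.4, 3.33 and 6.80 FPKM in siSIRT6, siKDM5C and control cells and changed in the same directions as CDH2 (log2 differences of 0.79 and -0.85 from control). The partner of CDH1, ENSG00000260798, averaged 0.919, 0.268 and 1.18 FPKM in the same groups and, like CDH1, was lowest in all 3 siKDM5C libraries. It reached 1 FPKM in the 3 control libraries and siSIRT6 library 2 but in no siKDM5C library, so it entered the test through the groups where it is higher and its p-value is not given. ZEB1-AS1 did not follow ZEB1. It averaged 0.668 ± 0.0313 FPKM in siSIRT6, 1.27 ± 0.0213 in siKDM5C and 0.444 ± 0.0511 in control cells (SD, n = 3 each), and the 3 groups did not overlap. It reached 1 FPKM only in the siKDM5C libraries, through which it entered the test, so its p-values are not given.

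**Figure D3:**
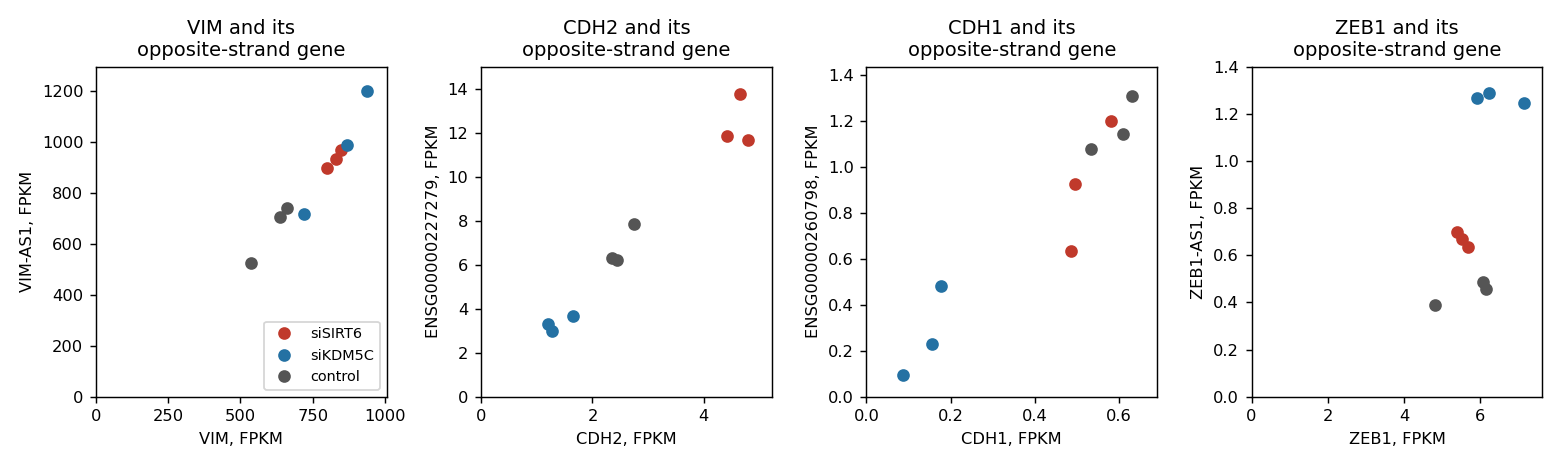
FPKM of 4 opposite-strand genes (vertical axes) against the member they overlap (horizontal axes), 1 point per library, coloured by group. The partners of VIM, CDH2 and CDH1 run along with their member, and ZEB1-AS1 separates the 3 groups at similar levels of ZEB1.

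Other genes of the same processes were read from lists chosen with earlier results of these data known; counts are over all genes tested, beside the shares of all genes called given above. These counts include genes, some of them in the mesenchymal list, that averaged under 1 FPKM in some groups. Such genes entered the test through the groups where they are higher. Of 14 other EMT-promoting transcription factors, 8 were tested. In siSIRT6 cells 4 rose and 1 fell (median log2 difference 0.19, against -0.05 for all genes tested), and in siKDM5C cells 4 rose and 2 fell (median 0.30, against -0.02). TCF3, which encodes the helix-loop-helix proteins E12 and E47, averaged 13.6 ± 0.324 FPKM in siSIRT6, 15.7 ± 1.01 in siKDM5C and 5.29 ± 0.297 in control cells (SD, n = 3 each), with log2 differences of 1.22 and 1.40 from control (limma adjusted p of 1.79e-06 and 8.53e-07). FOXC2, a forkhead factor, rose in both by 0.53 and 0.64. SOX4 rose in siSIRT6 cells (0.53) and HMGA2, an architectural chromatin protein, in siKDM5C cells (0.56). TEAD1, a partner of the YAP coactivator, fell in both knockdowns, with log2 differences of -0.60 in siSIRT6 and -0.47 in siKDM5C cells (limma adjusted p of 0.000887 and 0.00306).

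Of 15 regulators of the epithelial state, 8 were tested; 1 rose and 3 fell in each knockdown, with medians of -0.06 in siSIRT6 and -0.10 in siKDM5C cells. KLF5 rose in both, by 0.79 and 0.65, at a control mean of 0.978 FPKM, under the test's minimum. In siKDM5C cells, where CDH1 fell, GRHL3 and ELF3, both epithelial transcription factors, fell most. GRHL3 averaged 2.83 ± 0.272 FPKM in siSIRT6, 0.784 ± 0.0900 in siKDM5C and 3.63 ± 0.150 in control cells (SD, n = 3 each), and it also fell in siSIRT6 cells (-0.27, limma adjusted p = 0.0125). ELF3 averaged 3.84 ± 0.188 FPKM in siSIRT6, 1.48 ± 0.0496 in siKDM5C and 3.78 ± 0.170 in control cells. Both were higher in siSIRT6 than in siKDM5C cells, GRHL3 by 1.10 and ELF3 by 0.96 (limma adjusted p = 9.12e-06 for ELF3). GRHL3 entered the test through the siSIRT6 and control libraries, where it is higher, so its p-value in that comparison is not given. FOXA2, an endoderm factor, fell in siSIRT6 cells (-0.44, limma adjusted p = 0.00118).

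Among 17 catenins and junction partners of the cadherins, 13 were tested; 4 rose and 5 fell in siSIRT6 cells (median 0.00), and 8 rose and 3 fell in siKDM5C cells (median 0.19). CTNNB1, which encodes beta-catenin, averaged 14.4 ± 0.232 FPKM in siSIRT6, 23.3 ± 0.537 in siKDM5C and 23.4 ± 0.536 in control cells (SD, n = 3 each), a log2 difference of -0.67 in siSIRT6 cells (limma adjusted p = 6.92e-06). CTNNBIP1, an inhibitor of beta-catenin, rose in both, by 1.06 and 0.89. CTNNA1, which encodes alpha-catenin, rose in siKDM5C cells (0.40, limma adjusted p = 0.000216).

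Of 29 other epithelial adhesion and polarity genes, 20 were tested. In siSIRT6 cells 5 rose and 5 fell (median 0.03), and in siKDM5C cells 5 rose and 9 fell (median -0.21). Several keratin and claudin genes differed between the knockdowns. KRT19 averaged 302 ± 12.1 FPKM in siSIRT6, 152 ± 15.6 in siKDM5C and 148 ± 3.58 in control cells, and KRT8 556 ± 18.9, 259 ± 28.0 and 495 ± 14.7 FPKM in the same groups (SD, n = 3 each). CLDN1, a tight junction claudin, rose in siSIRT6 cells by 0.94 and had a log2 difference of -0.59 in siKDM5C cells (limma adjusted p of 1.34e-05 and 0.000163).

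Of 28 other mesenchymal genes, 21 were tested; 9 rose and 2 fell in siSIRT6 cells (median 0.20), 11 rose and 2 fell in siKDM5C cells (median 0.23), and 12 were higher and 4 lower in siSIRT6 than in siKDM5C cells (median 0.28, against -0.02 for all genes tested). The fibrillar collagen genes COL5A1 and COL5A2 rose by 2.04 and 2.07 in siSIRT6 cells, and by 1.29 and 0.51 in siKDM5C cells. COL1A1 averaged 41.4 ± 0.959 FPKM in siSIRT6, 15.6 ± 1.12 in siKDM5C and 16.0 ± 0.514 in control cells. MMP14, a membrane-anchored matrix protease, averaged 1.13 ± 0.0778 FPKM in siSIRT6, 6.28 ± 0.147 in siKDM5C and 1.31 ± 0.0985 in control cells (SD, n = 3 each). COL1A1 is also a fibroblast marker. Of 9 fibroblast markers, 2 averaged at least 1 FPKM in siSIRT6, 2 in siKDM5C and 1 in control cells, and their summed level was 42.8 to 45.0 FPKM in siSIRT6, 16.2 to 18.4 in siKDM5C and 16.2 to 17.3 in control libraries. The other marker at 1 FPKM or more was COL3A1, which averaged 1.72 FPKM in siSIRT6, 1.10 in siKDM5C and 0.320 in control cells. Over the 9 libraries THY1 ran from 0.184 to 0.319 FPKM and LUM from 0 to 0.381. COL1A2, DCN, PDGFRA, PDGFRB and FAP stayed at 0.0379 FPKM or less. FAP was at 0 in all siSIRT6 and control libraries and PDGFRA at 0 in all controls. The part of other cells in the mesenchymal results was not tested.

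Of 11 intermediate filament genes and partners of vimentin, 4 were tested; all 4 rose in siSIRT6 cells and 3 in siKDM5C cells. LMNA, which encodes the lamins A and C, averaged 110 ± 3.83 FPKM in siSIRT6, 129 ± 14.1 in siKDM5C and 65.5 ± 3.13 in control cells (SD, n = 3 each). SYNM, which encodes synemin, rose in siSIRT6 cells (1.36) and had a difference of -0.02 in siKDM5C cells (limma adjusted p of 5.14e-07 and 0.769), and NES, the nestin gene, rose in siKDM5C cells (1.14) and in siSIRT6 cells (0.42), with a direct difference of -0.72 between siSIRT6 and siKDM5C (limma adjusted p = 8.10e-05). Of 17 receptors and assembly factors of fibronectin, 11 were tested; 6 rose and 1 fell in siSIRT6 cells (median 0.41), and 5 rose and 1 fell in siKDM5C cells (median 0.12). TGM2, a transglutaminase that crosslinks matrix proteins, averaged 88.7 ± 2.44 FPKM in siSIRT6, 85.6 ± 6.23 in siKDM5C and 34.8 ± 0.0968 in control cells. TNS3, which encodes a tensin of integrin adhesions, rose by 1.01 in siSIRT6 and 0.42 in siKDM5C cells.

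Of 26 corepressors and stability factors of SNAIL and ZEB proteins, 25 were tested; 8 rose and 8 fell in siSIRT6 cells (median 0.03), and 6 rose and 9 fell in siKDM5C cells (median -0.08). HDAC1, a histone deacetylase recruited by SNAIL, averaged 50.5 ± 1.14 FPKM in siSIRT6, 53.4 ± 5.49 in siKDM5C and 20.6 ± 1.13 in control cells (SD, n = 3 each). SIN3A, a scaffold of histone deacetylase complexes, had differences of -0.73 in siSIRT6 and -0.41 in siKDM5C cells (limma adjusted p of 8.98e-06 and 0.000217). KDM1A, the demethylase LSD1, fell in both knockdowns (-0.45 in siSIRT6 and -0.13 in siKDM5C cells; limma adjusted p of 6.20e-05 and 0.0312), and further in siSIRT6 than in siKDM5C cells (direct difference -0.32, limma adjusted p = 0.000674). GSK3B, a kinase that marks SNAIL for degradation, rose in siSIRT6 cells (0.60).

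**Figure D4:**
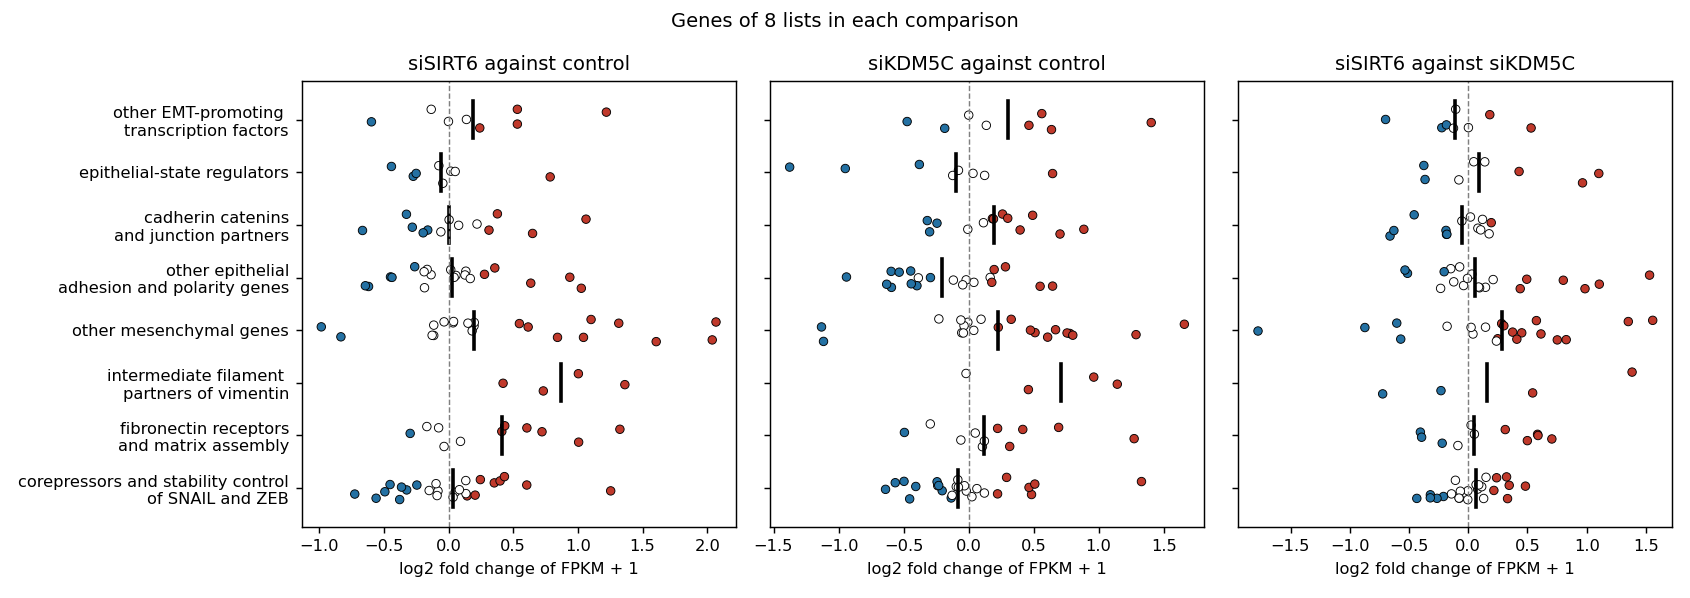
Log2 fold change on the log2(FPKM + 1) scale of the tested genes of 8 lists (points, 1 per gene) in the 3 comparisons; red and blue points passed an adjusted p of 0.05 (higher and lower), white points did not, and black bars are list medians. Most of the called mesenchymal genes lie to the right in all panels, and the epithelial adhesion genes lie on both sides of 0.

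For each tested member, the protein-coding genes with the most similar profile over the 9 libraries were listed by Pearson's r of log2(FPKM + 1). The libraries fall into 3 groups and share the knockdowns, so r describes likeness only. CDH2 was closest to PCDH7, a protocadherin gene (r = 0.994), and then to PANX1 and CDS1. VIM was closest to ACTB, the beta-actin gene (r = 0.987), SNAI2 to PSD3 (r = 0.986), EPCAM to SPIDR (r = 0.996), ZEB1 to MCUB (r = 0.953) and SNAI1 to B3GNT4 (r = 0.952).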

How the data were processed

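The authors deposited 1 FPKM value per gene and library for 9 libraries. Per the submitters' processing notes, Trimmomatic, HISAT2, Cufflinks and HTSeq were used with hg38, without versions or roles; the sources used here name neither the annotation nor the strand setting. Gene symbols were looked up in a name table (36659 of 36753 identifiers) and coordinates from GENCODE release 29 (35564 identifiers). FPKM times a whole gene length and the library's reads gave whole reads for 100% of genes (tolerance 0.01 of a read; the annotated exon union was the length for 58.93%). Replicate libraries differed by more than counting noise, so none was treated as a repeat.

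limma 3.58.1 in R 4.3.3 (empirical Bayes with a trend) fitted log2(FPKM + 1) of 16135 genes (1 FPKM or more in 3 or more libraries), all 9 libraries in 1 fit without covariates (6 residual degrees of freedom), two-sided, with Benjamini-Hochberg adjustment. The read-scale fit used log2 CPM with a prior count of 0.5. The fit on log2(FPKM + 1) was tested on simulated data, and the read-scale fit was not. Alternatives changed the pseudocount, filter, scaling, samples in the fit, replicate block and unit, and left out each library. Errors are SD of 3 libraries or SE of the fit; limits from reads cover counting error only. Named were all members, genes overlapping them, the 3 most similar genes per tested member, and up to 4 genes per list with the smallest adjusted p in a comparison. The members and lists were chosen with earlier results of these data known. Some single genes that met this rule are counted in their lists but not reported by name here.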

Additional observations from a re-analysis of the deposited data

How the results depend on the processing

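The calls of SNAI2, CDH2 and VIM in both knockdowns against control, and of EPCAM in siKDM5C cells, kept their direction and stayed past the threshold under every alternative that tested them; SNAI1 and EPCAM in siSIRT6 cells did not, as given above. With a minimum of 5 FPKM, which tests fewer genes, 5367 genes were called in siSIRT6 against control (8194 in the fit reported) and 5418 in siKDM5C against control (8308), and the members called were 2, 1 and 1 in siSIRT6 cells, siKDM5C cells and siSIRT6 against siKDM5C. The members called in siSIRT6 against siKDM5C were 4 with no filter, 4 with FPKM rescaled to an equal sum and 5 on the read scale, against 2. Leaving out 1 library at a time gave 6698 to 8767 genes and 3 to 5 members in siSIRT6 against control (3 without control replicate 3 or without siSIRT6 replicate 2), 6873 to 8324 genes and 4 to 4 members in siKDM5C against control, and 4820 to 6873 genes and 2 to 3 members in siSIRT6 against siKDM5C (4 to 6 members on the read scale). Rescaling FPKM to an equal sum moved the median of all genes by 0.11 in both comparisons with control.

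Directions turned only for differences near 0 that no fit called; the cause was not tested. For ZEB1 in siSIRT6 against control they were 0.0089 with median-of-ratios scaling, 0.0871 rescaled to an equal sum, and -0.12 to 0.0244 with a library left out (0.0220 and 0.0301 on the read scale). For SNAI1 in siKDM5C against control they were 0.0010, 0.123, and -0.0435 to 0.0550 with a library left out (0.0020, 0.0344 and 0.0617 on the read scale). For VIM in siSIRT6 against siKDM5C they were 0.0164 with median-of-ratios scaling and -0.13 to 0.0590 with a library left out (0.0010, 0.0041 and 0.0591 on the read scale).

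Equal replicate numbers did not pair the libraries: the deviations of same-numbered libraries correlated at -0.229 to 0.252. With the replicate number as a block, the genes called were 8130, 8245 and 6386 and the members called 4, 4 and 3 in the 3 comparisons; EPCAM in siSIRT6 against control had a limma adjusted p of 0.0524 and SNAI1 in siSIRT6 against siKDM5C 0.0346. Depth limits TWIST1 and, in siKDM5C cells, CDH1.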

Other observations

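Other cadherins and EMT factors lay too low for the test on FPKM; those named here were chosen after their values were seen. Of 18 other classical and atypical cadherins, only CDH24 reached the minimum of the FPKM test. CDH6, K-cadherin, had 0.502, 0.479 and 0.421 FPKM in siSIRT6 libraries, 0.0547, 0.0521 and 0.0518 FPKM in siKDM5C libraries and 0.0706, 0.0464 and 0.0947 FPKM in control libraries. The siSIRT6 libraries held 379 reads together, the siKDM5C libraries 40 and the control libraries 49. The siSIRT6 libraries lay above the other 6, and siKDM5C and control overlapped. CDH6 met the minimum of the read-scale fit only because of its siSIRT6 libraries, so no test is given. CDH3, P-cadherin, had 0.954, 0.891 and 1.07 FPKM in siSIRT6 libraries, 0.442, 0.397 and 0.424 FPKM in siKDM5C libraries and 0.825, 0.779 and 1.01 FPKM in control libraries. It met that minimum in all 9 libraries. Like CDH1 it was lower in siKDM5C cells than in control cells (read-scale log2 difference -1.03, limma adjusted p = 6.86e-05) and had a difference of 0.16 in siSIRT6 cells (limma adjusted p = 0.354).

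SNAI3, the third SNAIL-family gene, had 0.935, 1.10 and 0.641 FPKM in siSIRT6 libraries, 0.120, 0.0932 and 0.198 FPKM in siKDM5C libraries and 0.474, 0.422 and 0.246 FPKM in control libraries, from 99, 15 and 37 reads in all. The siSIRT6 libraries lay above the other 6 and the siKDM5C libraries below the other 6. Only the siSIRT6 libraries reached 1 CPM, so no test is given. TWIST2, the relative of TWIST1, had 17 reads in siSIRT6, 59 in siKDM5C and 69 in control libraries together. Its siSIRT6 libraries, at 0.190, 0.222 and 0.0398 FPKM, lay below the siKDM5C libraries (0.644, 0.434 and 0.483 FPKM) and the control libraries (0.294, 0.926 and 0.745 FPKM). TWIST2 met the minimum through siKDM5C library 1 and control libraries 2 and 3, so no test is given.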
